A study of Mus musculus with 8 samples.

Results

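The 2 active histone marks of the series, H3K4me3 and H3K9ac, were compared with each other in both tumor lines, with 1 H3K4me3 and 1 H3K9ac library from LLC-NR and 1 of each from LLC-R, 4 of the 8 libraries in all. Nucleosomes were released with micrococcal nuclease from isografts of Lewis lung carcinoma (LLC), a murine tumor line, grown under the skin of 6- to 8-week-old female C57BL/6J mice. LLC-NR tumors were labelled drug sensitive, the drug being VEGF-Trap, which inhibits VEGF, and LLC-R cells came from repeated selection in mice under continuous VEGF-Trap. The sources used here do not settle whether the mice that carried the profiled isografts also received VEGF-Trap, and do not say how many tumors went into a library. Comparing the marks asks where along genes and sequence both active marks lie together and where only one of them is dense.

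H3K4me3 is written at active and poised promoters by the SET1 and MLL complexes, whose CXXC subunits bind unmethylated CpGs, so that the mark follows CpG islands. H3K9ac is placed by the GCN5 and PCAF acetyltransferases at active promoters and enhancers and is removed by histone deacetylases. The nucleosomes on either side of a transcription start site (TSS) of an active gene usually carry both marks, while the stretch just upstream of the start is depleted of nucleosomes.

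The data give the position of each nucleosome-sized peak and no height. On chromosomes 1 to 19, H3K4me3 had 5418394 peaks (LLC-NR) and 5398636 peaks (LLC-R), and H3K9ac had 8152931 and 7491487. Peaks covered 33.3% and 33.2% of the sequence for H3K4me3 and 50.1% and 46.0% for H3K9ac, so the level of a mark is given below as relative density, the peaks per base of a region divided by the peaks per base of the same library over chromosomes 1 to 19, where 1 is the mean of the library. The H3K9ac library was the larger of the pair in both lines, so the mark and the number of peaks cannot be told apart. Each line gives 1 value per mark, and with 2 libraries a side an exact two-sided permutation test cannot go below p = 0.333. The isografts also hold host cells, and fewer cells of a type and less of a mark per cell cannot be told apart. No promoter of the 6 leukocyte, 5 endothelial, 6 fibroblast and 6 lung epithelial marker genes was without a peak in the 4 libraries together. Only 607 of all 21418 promoters were without one. The mean H3K9ac relative density of these lists ran from 1.06 to 1.40 in LLC-NR and from 1.07 to 1.28 in LLC-R. Over all promoters it was 1.09 and 1.07, so these values do not show which cells were present.

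The clearest contrast between the marks followed the CpGs of the promoter, which is visible in the sequence itself. The 300 bases upstream of the TSS are shown for 2 of the promoters that were rich in H3K4me3 peaks and poor in H3K9ac peaks in both lines, Foxf1a and Pip5k1b, and for 2 with the opposite pattern, Fmod and Adig. Sequence is from NCBIM37, the assembly that mm9 names, read 5′ to 3′ on the strand of the gene, with CpG dinucleotides in capitals. Foxf1a (chr8:123607986-123608285, plus strand) encodes a forkhead transcription factor, Pip5k1b (chr19:24630363-24630662, minus strand) a phosphatidylinositol phosphate kinase, Fmod (chr1:135933531-135933830, plus strand) the matrix proteoglycan fibromodulin, and Adig (chr2:158328048-158328347, plus strand) adipogenin, a protein of fat cells. None of the 4 stretches overlaps an annotated exon.
Foxf1a: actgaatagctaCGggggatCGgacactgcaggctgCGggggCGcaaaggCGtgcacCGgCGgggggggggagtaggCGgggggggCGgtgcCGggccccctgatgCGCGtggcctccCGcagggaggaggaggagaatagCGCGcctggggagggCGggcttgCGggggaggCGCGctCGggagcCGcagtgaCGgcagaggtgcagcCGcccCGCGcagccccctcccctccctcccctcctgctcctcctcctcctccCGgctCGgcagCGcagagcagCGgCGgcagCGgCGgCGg
Pip5k1b: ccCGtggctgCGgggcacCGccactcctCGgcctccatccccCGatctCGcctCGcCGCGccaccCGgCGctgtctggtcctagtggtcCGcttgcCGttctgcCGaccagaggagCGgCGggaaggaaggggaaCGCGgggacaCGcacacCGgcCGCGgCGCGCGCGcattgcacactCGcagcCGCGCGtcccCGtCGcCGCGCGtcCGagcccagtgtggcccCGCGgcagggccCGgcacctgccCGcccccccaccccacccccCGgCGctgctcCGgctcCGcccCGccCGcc
Fmod: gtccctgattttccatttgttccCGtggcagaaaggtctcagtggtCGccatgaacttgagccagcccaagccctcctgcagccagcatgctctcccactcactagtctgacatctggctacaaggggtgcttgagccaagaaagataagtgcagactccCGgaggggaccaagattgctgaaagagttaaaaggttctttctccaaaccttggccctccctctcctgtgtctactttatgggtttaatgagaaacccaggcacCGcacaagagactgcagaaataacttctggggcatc
Adig: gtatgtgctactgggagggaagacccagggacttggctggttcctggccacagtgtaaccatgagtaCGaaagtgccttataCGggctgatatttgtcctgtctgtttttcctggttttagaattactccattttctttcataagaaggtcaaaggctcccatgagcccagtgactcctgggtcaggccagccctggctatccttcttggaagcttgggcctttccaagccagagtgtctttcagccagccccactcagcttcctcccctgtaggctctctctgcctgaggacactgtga

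These stretches hold 33 CpGs at Foxf1a, 46 at Pip5k1b, 4 at Fmod and 2 at Adig. Among the 21418 protein-coding promoters of chromosomes 1 to 19, the median was 10 CpGs, 7.96% held at least as many as Foxf1a and 1.66% at least as many as Pip5k1b, while 32.9% held at most as many as Fmod and 21.8% at most as many as Adig.

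Around the TSS, H3K4me3 peaks were denser than the mean of their library and H3K9ac peaks were close to theirs. Within 1 kb of a protein-coding TSS, which is 1.69% of the sequence, lay 2.45% of the H3K4me3 peaks in LLC-NR (95% Clopper-Pearson interval 2.44% to 2.46%) and 2.32% in LLC-R (2.31% to 2.33%). The same sequence held 1.85% of the H3K9ac peaks in LLC-NR (1.84% to 1.86%) and 1.83% in LLC-R (1.82% to 1.84%). The intervals cover counting error only. As relative densities these are 1.45 and 1.37 for H3K4me3 and 1.09 and 1.08 for H3K9ac, so the libraries of the 2 marks did not overlap, and the log2 ratio of H3K4me3 to H3K9ac was 0.37 ± 0.044 (SD, n = 2 lines). The covered share of the sequence gave the other order, with 54.7% and 49.6% under H3K9ac peaks and 48.1% and 45.4% under H3K4me3 peaks within 1 kb of a TSS, as H3K9ac peaks also covered more of the sequence as a whole. For comparison, the repressive mark H3K27me3 had 1.06 and 1.02 and the elongation mark H3K36me3 had 0.873 and 0.977 in the same region.

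With distance, the marks drew together and then crossed. In LLC-NR the log2 ratio of H3K4me3 to H3K9ac was 0.55 within 0.25 kb of the TSS, 0.42 from 0.25 to 0.5 kb, 0.33 from 0.5 to 1 kb, 0.25 from 1 to 2 kb and 0.13 from 2 to 5 kb. The values in LLC-R were 0.50, 0.36, 0.26, 0.18 and 0.08. All 19 chromosomes had a ratio above 0 in each of these 5 classes in both lines. Between 5 and 10 kb the ratio was 0.01 in both lines, with 14 chromosomes above 0 in LLC-NR and 15 in LLC-R. From 20 to 500 kb it was below 0 on all 19 chromosomes in both lines, at -0.02 to -0.06. More than 500 kb from any TSS it was again above 0 on all 19 chromosomes, at 0.06 in LLC-NR and 0.11 in LLC-R. Both marks were below their means there, H3K9ac at 0.858 and 0.862 and H3K4me3 at 0.897 and 0.927. The plot of peaks by distance shows the H3K4me3 curves well above the others within 5 kb and all curves near 1 beyond.

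**Figure D1:**
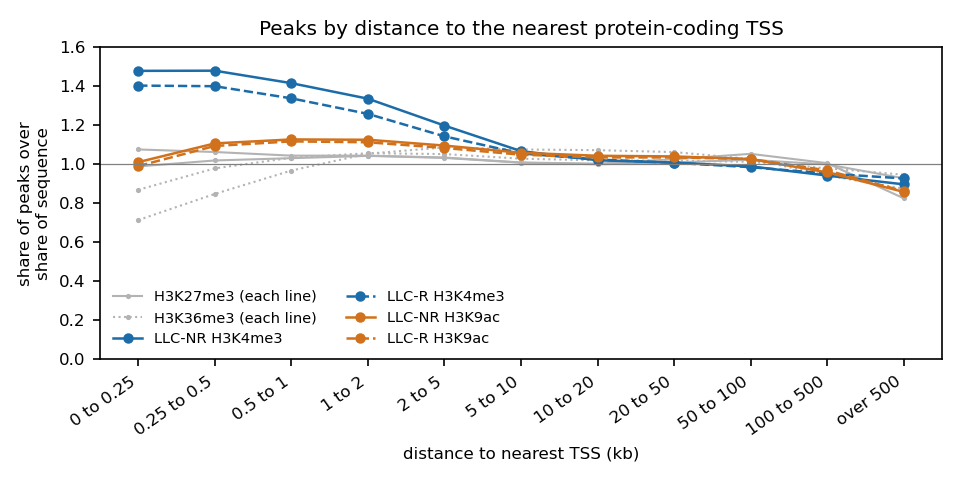
Share of peaks divided by share of sequence (relative density) by distance to the nearest protein-coding TSS in kb, 1 line per library, with H3K27me3 and H3K36me3 of each line in grey. Both H3K4me3 libraries fall from 1.48 and 1.40 within 0.25 kb to about the level of H3K9ac at 5 to 10 kb, while both H3K9ac libraries start at 1.01 and 0.99.

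At single-nucleosome scale, the marks agreed in position and parted in level. In promoters with high CpG content (HCPs, in which some 500-bp interval reaches both 55% G+C and 0.6 times the CpGs that its base composition predicts), the first nucleosome downstream of the TSS had its maximum at 135 bp in LLC-NR and 125 bp in LLC-R for H3K4me3, and at 125 and 135 bp for H3K9ac, in bins of 10 bp. Its height was 3.34 and 2.97 for H3K4me3 and 1.79 and 1.75 for H3K9ac. The position was not particular to these 2 marks. H3K27me3 had this maximum at 125 bp in both lines, with heights of 1.78 and 1.36. H3K36me3 had it at 135 and 125 bp, with 0.888 and 1.26. The nucleosome upstream had its maximum at -205 and -195 bp with heights of 2.12 and 1.90 for H3K4me3, and at -205 bp in both lines with 1.40 and 1.29 for H3K9ac. Between them, the lowest H3K9ac value was 0.651 (LLC-NR) and 0.546 (LLC-R), below the mean of the library, whereas the lowest H3K4me3 value was 1.49 and 1.27, above it. The lowest values of H3K27me3 (0.860 and 0.826) and H3K36me3 (0.319 and 0.490) were below their means too. As a share of the downstream maximum, the lowest value was 0.44 and 0.43 for H3K4me3 and 0.36 and 0.31 for H3K9ac. Averaged over the 250 bp before the TSS, H3K4me3 stood at 1.78 and 1.58 and H3K9ac at 0.959 and 0.877. The gap was smaller around 1 kb from the TSS on both sides. Downstream, the levels there were 1.76 and 1.65 for H3K4me3 and 1.243 and 1.245 for H3K9ac. Upstream they were 1.65 and 1.52 against 1.234 and 1.204, so at this distance the gap was larger downstream in both lines. At 4 to 5 kb downstream the values were 1.36 and 1.29 against 1.2 and 1.19. In promoters with low CpG content (LCPs, in which no interval reaches 0.4 times that number) the curves of the 2 marks lay on each other, as the plot of both promoter classes shows.

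**Figure D2:**
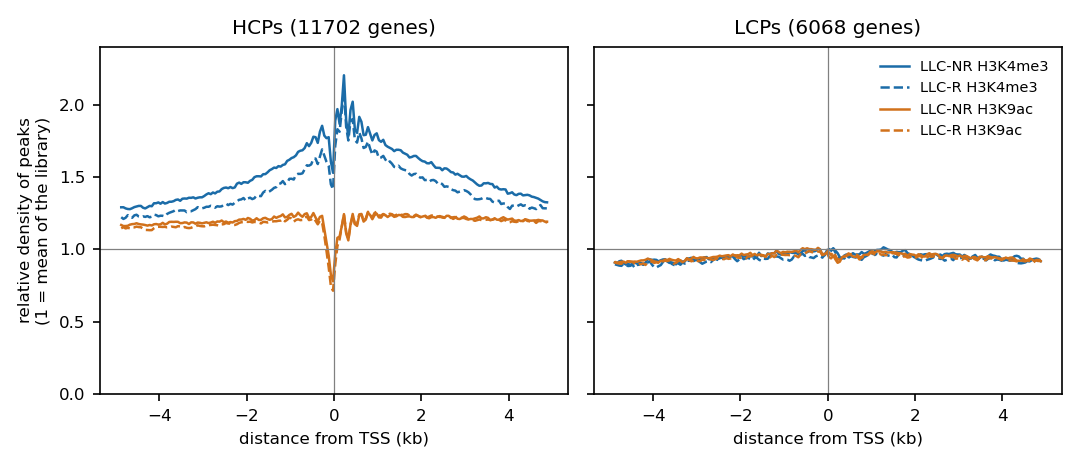
Relative density of peaks by distance from the TSS in kb, as means over 5 bins of 50 bp, for 11702 HCPs (left) and 6068 LCPs (right), 1 line per library. In HCPs both H3K4me3 lines lie above both H3K9ac lines at every distance shown and the H3K9ac lines dip under 1 just upstream of the TSS, while in LCPs all 4 lines run together.

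Peaks of the marks also shared positions outside promoters. Of the H3K4me3 peaks of LLC-NR, 33.4%, and of those of LLC-R, 27.8%, had an H3K9ac midpoint within 20 bp, which is 2.87 and 2.42 times the number found per base at offsets of 60 to 100 bp. The ratio was 4.58 and 3.14 within 1 kb of a TSS and 2.76 and 2.38 at 5 kb or more from one. It was not particular to this pair of marks, because H3K4me3 gave 2.79 and 2.55 with H3K27me3 and 2.58 and 2.47 with H3K36me3, and the 2 H3K4me3 libraries gave 2.42 with each other.

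The marks parted further in promoters (1.5 kb each, of which 1 kb lies before the TSS) with more CpGs. The log2 ratio of H3K4me3 to H3K9ac was 0.64 (LLC-NR) and 0.57 (LLC-R) over the 11702 HCPs, 0.18 and 0.14 over the 3648 promoters with intermediate CpG content (ICPs), and 0.0045 and -0.022 over the 6068 LCPs. The difference between HCPs and LCPs was 0.61 ± 0.030 (SD, n = 2 lines). In peaks per promoter the HCPs were alike, with 6.07 and 5.62 for H3K4me3 and 5.87 and 5.26 for H3K9ac, and it is against the mean of each library that H3K4me3 stood out. Over 10 groups of equal size ordered by CpGs, H3K4me3 rose throughout from 0.82 to 1.91 in LLC-NR and from 0.78 to 1.80 in LLC-R. H3K9ac rose only to group 6, from 0.83 to 1.18 and from 0.81 to 1.15, and was lower again in the group with the most CpGs, at 1.07 and 1.05. The plot by CpG content shows the curves leaving each other at about 20 CpGs per promoter.

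**Figure D3:**
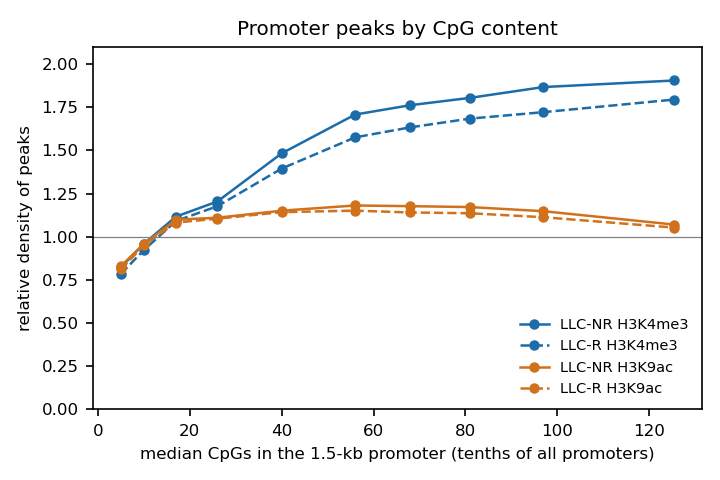
Relative density of peaks in promoters by the median number of CpGs in the 1.5-kb promoter, in 10 groups of equal size of all 21418 promoters, 1 line per library. H3K4me3 climbs to 1.91 and 1.80 in the last group, while H3K9ac levels off by group 6 at 1.18 and 1.15.

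CpG-dense sequence away from TSSs showed the same split. The 566 tiles of 1 kb with 60 or more CpGs at least 5 kb from any TSS had an H3K4me3 relative density of 1.38 (LLC-NR) and 1.35 (LLC-R), and an H3K9ac relative density of 0.710 and 0.744. H3K27me3 had 1.03 and 0.925 and H3K36me3 had 0.514 and 0.706 in these tiles. With 40 to 59 CpGs, in 2757 distal tiles, all 4 values were below 1, at 0.799 and 0.783 for H3K4me3 and 0.570 and 0.580 for H3K9ac. Nearer to TSSs, the 8563 tiles with 60 or more CpGs had 1.90 and 1.80 for H3K4me3 and 1.07 and 1.05 for H3K9ac.

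Single promoters were compared with limma on log2(peaks + 0.5), scaled by the peaks of the library, with the 2 lines as a term, for 20664 promoters, those in which 2 or more of the 4 libraries had a peak. H3K4me3 was above H3K9ac at an adjusted p under 0.05 in 6721 promoters (32.5%, 9045 at an unadjusted p under 0.05), and H3K9ac was above H3K4me3 in 69 (0.334%, 261 unadjusted). Being above refers to this scaled value and not to raw peak numbers. By class, H3K4me3 was above among 53.5% of 11627 HCPs, 9.52% of 3499 ICPs and 3.03% of 5538 LCPs. H3K9ac was above in 0 HCPs with limma (6 at an unadjusted p), and in 0.486% and 0.939% of ICPs and LCPs. With 4 libraries the fit leaves 1 residual degree of freedom per promoter and takes its spread from all promoters together. Without the LLC-NR or without the LLC-R H3K9ac library, in fits that also lacked the line term, and in which the spread comes from the 2 H3K4me3 libraries, limma called 0 promoters in either direction, with 6145 and 5422 for H3K4me3 and 424 and 276 for H3K9ac at an unadjusted p.

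Housekeeping genes lay near the values of HCPs, the class of 73 of the 76 ribosomal protein promoters. Of these 76, 36 (47.4%) had H3K4me3 above H3K9ac, with a median log2 ratio of 0.53 against 0.43 over all promoters tested and 0.60 over HCPs. Rpl37 held 7 and 7 H3K4me3 peaks (LLC-NR first, then LLC-R, as in the pairs that follow) and 6 and 4 H3K9ac peaks, and Rpl19 held 7 and 3 against 8 and 7. Of 40 proteasome promoters, 22 (55%) were called for H3K4me3, among them Psmb3 with 7 and 6 against 4 and 4 peaks. Psma6, an LCP that encodes an alpha subunit of the proteasome core, held 2 and 2 H3K4me3 peaks and 6 and 7 H3K9ac peaks (log2 ratio -0.95 ± 0.44 SE, adjusted p = 0.0788 with limma). Of 17 glycolysis promoters, 12 of them HCPs, 8 (47.1%) were called for H3K4me3, against the 32.5% of all promoters and 53.5% of HCPs given above.

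Genes of the machinery that writes and reads these marks mostly had HCPs too. H3K4me3 was above H3K9ac in 11 of 20 promoters (55%) of the H3K4 methylation list and in 11 of 19 (57.9%) of the H3K9 acetylation list, with medians of 0.58 and 0.54. These shares were close to the 53.5% of all HCPs, the class of 18 of the 20 and 16 of the 19 promoters. Mll3, an H3K4 methyltransferase of enhancers, held 8 and 7 H3K4me3 peaks and 5 and 3 H3K9ac peaks (log2 ratio 1.39 ± 0.26 SE, adjusted p = 4.75e-05 with limma). Setd1a, the catalytic subunit of a SET1 complex, held 7 and 7 against 6 and 3 peaks (1.18 ± 0.26, adjusted p = 0.000275). Hdac3, a histone deacetylase, held 7 and 7 against 5 and 4 peaks (1.12 ± 0.25, adjusted p = 0.000338). The groups of 2 libraries did not overlap in peak numbers in any of these 3 promoters. How many of all promoters lack such an overlap is not given here. Each of the 3 has 1 of the 2 highest log2 ratios of its list, from the same peak numbers, so the lack of overlap is no further support. Mll1, Wdr5, Kat2b, Kat2a and Mll2 were also called, at log2 ratios from 0.44 to 0.75 on the scale of the library's own peaks. In raw numbers H3K4me3 did not exceed H3K9ac at Kat2b (7 and 7 against 8 and 6), Kat2a (6 and 6 against 7 and 5) and Mll2 (7 and 7 against 8 and 7). Mll1 held 7 and 7 against 6 and 6 peaks, and Wdr5 held 7 and 6 against 6 and 5. Hdac1, Hdac2, Sirt6, Kdm5b and Cxxc1 did not pass, at 0.27, 0.32, 0.32, 0.31 and 0.53. Among the genes measured by the study with ChIP-qPCR, Ptk2 (focal adhesion kinase) was called, with 7 and 7 H3K4me3 peaks against 6 and 6 H3K9ac peaks and a log2 ratio of 0.74. Smad3 and Mapk9, with HCPs, and Mmp9 and Nfkb1, with LCPs, were not called, at 0.43, 0.51, 0.27 and 0.27.

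Among developmental regulators, single promoters had wide gaps while the share called was not above that of HCPs. H3K4me3 was above H3K9ac in 51 of 105 promoters (48.6%) of developmental transcription factors, with a median of 0.65, and in 15 of 40 Hox promoters (37.5%), with a median of 0.53. The background was 32.5% with a median of 0.43 over all promoters and 53.5% with 0.60 over HCPs, the class of 88 of the 105 and 28 of the 40 promoters. Foxd3, a neural crest factor, held 6 and 5 H3K4me3 peaks and 1 and 3 H3K9ac peaks (log2 ratio 1.91 ± 0.50 SE, adjusted p = 0.00207 with limma), and Irx1 held 6 and 5 against 3 and 1. Hoxd13, which patterns limbs, held 6 and 5 against 3 and 2 peaks (1.55 ± 0.44, adjusted p = 0.00378), while Hoxd4 held 2 and 4 against 8 and 5 and did not pass. H3K27me3, the mark of Polycomb silencing, was also present in these promoters, with 6 and 7 peaks at Foxd3, 5 and 6 at Irx1 and 6 and 6 at Hoxd13. The means over HCPs were 4.68 and 5.58 (SD 1.62 and 1.36).

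The promoters with the largest log2 ratios, chosen after their values were seen, were mostly HCPs with few H3K9ac peaks. Prdm16, a zinc finger regulator of brown fat, held 6 and 6 H3K4me3 peaks and 0 and 1 H3K9ac peaks, and Kcnq3, a neuronal potassium channel, held 6 and 5 against 0 and 1. Epb4.1l4b, Fbn2 (fibrillin), Nrg1 (neuregulin) and Fzd10 (a Wnt receptor) held 5 to 7 H3K4me3 peaks in each line and 0 to 4 H3K9ac peaks. Of the 12 largest, 11 were HCPs with 122 to 180 CpGs and 1 was the LCP of Zfp709. The H3K27me3 peaks in the promoters of Prdm16 (5 and 6), Kcnq3 (6 and 5) and Fzd10 (5 and 7) were about as many as those of H3K4me3. HCPs as a class held similar numbers of H3K27me3 peaks, at means of 4.68 and 5.58 (SD 1.62 and 1.36). Ratios of promoters with a library at 0 depend on the pseudocount and are no bound, and 25 of the 6721 promoters called for H3K4me3 had 0 H3K9ac peaks in at least 1 line.

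Gene families with few CpG islands had ratios near 0. For reference, H3K4me3 was above in 3.03% of LCPs and 32.5% of all promoters tested, and H3K9ac above in 0.939% and 0.334%. Olfactory receptors, of which 970 of 1081 have LCPs, had a median log2 ratio of -0.02, with H3K4me3 above in 13 of 1074 promoters (1.21%) and H3K9ac above in 5 (0.466%). Olfr1176 was the lowest of them, with 2 and 0 H3K4me3 peaks and 7 and 6 H3K9ac peaks (log2 ratio -2.11 ± 0.63 SE, adjusted p = 0.00586 with limma). Vomeronasal receptors had a median of -0.04, keratins -0.02 and defensins -0.13, with H3K4me3 above in 4 of 236, 3 of 97 and 0 of 42 promoters (2 defensins at an unadjusted p with limma). Defb15, a beta-defensin, was the defensin called for H3K9ac, with 1 and 1 H3K4me3 peaks against 5 and 6. Chemokines and their receptors lay between, at 6 of 47 promoters (12.8%) and a median of 0.22. Cxcl17 held 1 and 2 H3K4me3 peaks against 7 and 5 H3K9ac peaks (-1.20 ± 0.53, adjusted p = 0.0611) and so was not called. Replication-dependent histone genes were called for H3K4me3 in 12 of 61 promoters (19.7%), below the 53.5% of HCPs, although 65 of all 67 are HCPs. Zinc finger genes were called in 131 of 349 (37.5%), near the 32.5% of all promoters, and 221 of all 357 are HCPs. The plot of gene lists gives the level of each list in the 4 libraries.

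**Figure D4:**
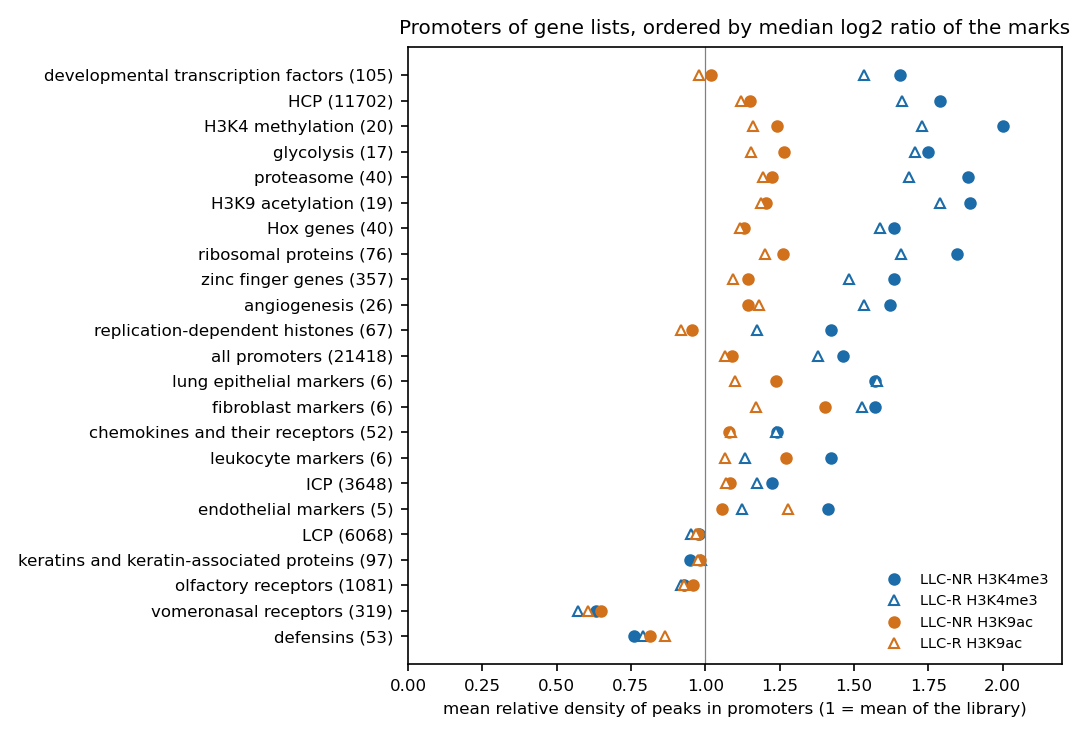
Mean relative density of peaks in the promoters of each gene list and CpG class (number of promoters in parentheses), 1 symbol per library, ordered by the median log2 ratio of H3K4me3 to H3K9ac. The H3K4me3 symbols lie to the right of the H3K9ac symbols in the upper lists, and the symbols of both marks lie close together for olfactory and vomeronasal receptors, keratins, defensins and LCPs.

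Of 26 angiogenesis promoters, 7 (26.9%) had H3K4me3 above H3K9ac, against 32.5% of all promoters, and the median was 0.44 against 0.43 over all promoters, so the list lay near the background. Dll4, a Notch ligand of tip cells, held 7 and 8 H3K4me3 peaks and 5 and 4 H3K9ac peaks (log2 ratio 1.21 ± 0.24 SE, adjusted p = 7.19e-05 with limma), and Flt1, a VEGF receptor, held 6 and 7 against 4 and 4 (1.16 ± 0.29, adjusted p = 0.00101). The groups did not overlap in either promoter, but both were named as the 2 highest ratios of the list, so this is no further support. The share of all promoters without overlap is not given here. Tie1 held 4 and 2 H3K4me3 peaks against 4 and 6 H3K9ac peaks, and Kdr, another VEGF receptor, held 6 and 4 against 6 and 6, and neither was called.

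Of the markers of host and epithelial cells, only Cd3e was called for H3K9ac. Over all promoters tested, 32.5% were called for H3K4me3 and 0.334% for H3K9ac, and lists of 5 or 6 genes are too small to set against these shares. Cd3e, a T cell receptor subunit, was the leukocyte marker called for H3K9ac, with 2 and 1 H3K4me3 peaks against 8 and 5 H3K9ac peaks (log2 ratio -1.29 ± 0.51 SE, adjusted p = 0.0383 with limma), and Itgam, a myeloid integrin, was called for H3K4me3 (0.68 ± 0.28, adjusted p = 0.0499). Of 5 endothelial markers, 0 were called with limma (1 at an unadjusted p). Of 6 fibroblast markers, 1 was called for H3K4me3, Col1a2 (0.78 ± 0.26, adjusted p = 0.0151 with limma). Among the lung epithelial markers, Nkx2-1 and Krt8 were called for H3K4me3 and the surfactant genes Sftpb and Sftpc were not.

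The 69 promoters with H3K9ac above H3K4me3 comprised 52 LCPs, 17 ICPs and 0 HCPs, and 38 of them had 0 H3K4me3 peaks in at least 1 line. Cd163l1, a scavenger receptor gene named after its values were seen, held 1 and 0 H3K4me3 peaks against 6 and 6 H3K9ac peaks, and Gkn2, a stomach mucosa gene, held 2 and 0 against 6 and 6. H3K27me3 was found there as well, with 8 and 8 peaks at Cd163l1 and 4 and 7 at Gkn2, against means of 4.73 and 5.62 over ICPs, the class of both. Promoters of near-identical copies such as Klk1b5 and Klk1b27 (kallikreins) or Cyp4a12a, at 0 H3K4me3 peaks in both lines and 2 or 3 H3K9ac peaks in each, are uncertain because only uniquely mapped reads were kept.

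Promoters with one mark high and the other low in both lines were few. High and low were set by the mean of all promoters in each library, and came to at least 7 peaks for H3K4me3 and for H3K9ac in LLC-R, at least 8 for H3K9ac in LLC-NR, and at most 3 for a low mark, out of a maximum of 9. H3K4me3 was high and H3K9ac low in 50 promoters of LLC-NR (0.233%), in 115 of LLC-R (0.537%) and in 5 of both (0.0233%, 95% Clopper-Pearson interval 0.00758% to 0.0545%). H3K9ac was high and H3K4me3 low in 96 (0.448%), 321 (1.5%) and 12 of both (0.056%, 0.0290% to 0.0978%). With every library thinned to the peak number of the smallest, the 2 lists held 27 and 105 promoters in place of 5 and 12, so their size was not stable. Thinning took peaks at random, mostly from H3K9ac, and the limits for high and low were set anew from the thinned means. Which of these changed the size was not tested. Both marks were high in both lines in 107 promoters (0.50%) and both low in 1349 (6.30%). No promoter on a list in one line was on the opposite list in the other, but lists of 0.233% to 1.5% of promoters leave little room for such an overlap. The difference had the same sign in LLC-R for 92.0% and 86.5% of the LLC-NR calls, and in LLC-NR for 91.3% and 81.9% of the LLC-R calls. Over all 20664 promoters tested, 4692 (22.7%) had opposite signs in the lines, on a scale set by the library's own peaks. The members of the lists were selected by their peak numbers, which are therefore given without a test.

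Each of the 5 promoters with high H3K4me3 and low H3K9ac was an HCP. Foxf1a held 7 and 7 H3K4me3 peaks and 3 and 2 H3K9ac peaks, and Pip5k1b held 8 and 7 against 2 and 3. Chsy3 on chromosome 18, a chondroitin synthase gene, held 7 and 7 against 2 and 2, and Cacna1g on chromosome 11, a T-type calcium channel gene, held 7 and 7 against 3 and 3. A530084C06Rik held 8 and 7 against 2 and 3. Their median of 126 CpGs compares with 49 over all promoters. They also held H3K27me3, at means of 6.6 and 6.4 peaks against 4.59 and 5.49 over all promoters, and fewer H3K36me3 peaks in LLC-NR (2.0 against 3.23) than in LLC-R (5.2 against 5.0). In Pip5k1b, whose upstream sequence is the CpG-rich one above, H3K4me3 midpoints of LLC-NR stood at -291, -56, 116 and 271 bp from the TSS and the nearest H3K9ac midpoints at -860 and 380 bp. In LLC-R the H3K4me3 midpoints were at -333, -91, 99 and 287 bp and the nearest H3K9ac midpoints at -630 and 176 bp, a narrower gap. In Foxf1a of LLC-NR, H3K4me3 midpoints stood at -291, -89, 106 and 298 bp and H3K9ac midpoints at -766, 91 and 404 bp, and in LLC-R those of H3K9ac were at -16 and 207 bp, close to the H3K4me3 midpoints at -9 and 165 bp.

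The 12 promoters with high H3K9ac and low H3K4me3 each held 8 H3K9ac peaks (LLC-NR) and 7 (LLC-R). Fmod had 1 and 2 H3K4me3 peaks. Adig, the olfactory receptor gene Olfr539 and BC049352 had 2 and 2. Slc26a1 (a sulfate transporter), Lctl (a klotho family protein), Tnnt2 (cardiac troponin T) and E030010N08Rik had 3 and 2, 1810065E05Rik had 1 and 3, and Aanat (a melatonin synthesis enzyme), Ccrl1 (an atypical chemokine receptor) and Arhgap32 had 3 and 3. Of these promoters 10 were LCPs, 2 were ICPs and 0 were HCPs, with a median of 15 CpGs. At Fmod in LLC-NR, the only H3K4me3 midpoint of the promoter was at 103 bp, next to 1 of 8 H3K9ac midpoints, at 125 bp, and the others ran from -928 to 459 bp at nucleosome spacing. In LLC-R the H3K4me3 midpoints of Fmod were at -518 and -89 bp and the 7 H3K9ac midpoints ran from -852 to 475 bp. At Adig in LLC-R, H3K4me3 midpoints were at -725 and 337 bp and the H3K9ac midpoints nearest the TSS at -71 and 129 bp, and in LLC-NR the latter were at -72 and 128 bp. The plot of peaks around the TSS shows these rows for 6 members.

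**Figure D5:**
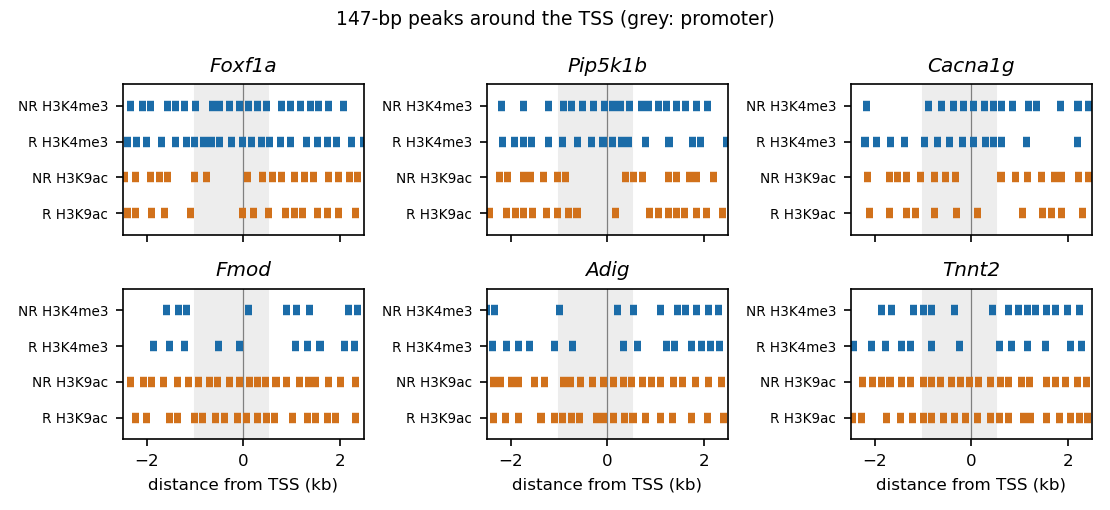
Each box is a nucleosome-sized peak by distance from the TSS in kb, with 1 row per library (NR, LLC-NR; R, LLC-R) and the promoter in grey, for 3 promoters with high H3K4me3 and low H3K9ac (top) and 3 with the opposite pattern (bottom). The gaps in the low mark lie inside the promoter, and outside the grey area both marks have peaks in every panel.

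The lists depend on single peaks. Boll and Vkorc1l1, with 6 and 7 H3K4me3 peaks against 2 and 2 H3K9ac peaks, were among 24 promoters that missed the first list by 1 peak, and all 24 were HCPs. Abo, with 3 and 2 H3K4me3 peaks against 8 and 6 H3K9ac peaks, was among 64 that missed the second, of which 42 were LCPs and 3 HCPs. With 2.5 kb on each side of the TSS, 0 promoters met either rule.

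Over all promoters with a peak, the Spearman correlation between peak numbers of the 2 marks was higher where CpGs were fewer, at 0.50 (LLC-NR) and 0.488 (LLC-R) for LCPs, 0.446 and 0.394 for ICPs and 0.345 and 0.233 for HCPs. The rise was not particular to this pair. From HCPs to LCPs, H3K4me3 with H3K27me3 went from -0.08 and 0.03 to 0.38 and 0.40, and with H3K36me3 from 0.07 and 0.08 to 0.44 and 0.45. H3K9ac went from -0.08 and 0.02 to 0.46 and 0.49 with H3K27me3, and from 0.18 and 0.26 to 0.46 and 0.50 with H3K36me3. These are correlations across promoters of 1 library pair, which share mappability and base composition and are not independent replicates.

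Within genes, both marks were slightly enriched, and H3K9ac more so. Bodies from 2 kb downstream of the TSS to the gene end stood above intergenic sequence by a log2 ratio of 0.17 in LLC-NR and 0.19 in LLC-R for H3K4me3 and 0.25 and 0.24 for H3K9ac, on 19 of 19 chromosomes for each of the 4 libraries. H3K36me3 stood at 0.37 and 0.20. The H3K4me3 value minus the H3K9ac value was -0.06 ± 0.021 (SD, n = 2 lines). From the fifth of 14508 genes with the fewest H3K36me3 peaks per body to the fifth with the most, the median relative density of H3K4me3 in the body went from 0.870 to 1.35 in LLC-NR and from 0.890 to 1.35 in LLC-R, and that of H3K9ac from 0.993 to 1.24 and from 0.957 to 1.24. Across gene bodies the Spearman correlation of the 2 marks was 0.62 and 0.66.

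Away from TSSs the marks varied together over 10-kb tiles. Across 172610 tiles at least 5 kb from a TSS, the Spearman correlation of H3K4me3 and H3K9ac peak numbers was 0.673 (LLC-NR) and 0.654 (LLC-R). H3K4me3 correlated as highly with H3K36me3 (0.688 and 0.673) and with itself between the lines (0.660), and H3K9ac between the lines gave 0.834. With the H3K27me3 and H3K36me3 libraries of the line held fixed, the correlation of the 2 active marks was 0.14 and 0.19. The tiles densest in H3K4me3, about the top 1%, were also among the densest in H3K9ac in 183 of 2534 cases (7.22%) in LLC-NR and 264 of 1992 (13.3%) in LLC-R. Read from H3K9ac, the same tiles were 10.6% of 1729 and 14.0% of 1885. Of all tiles, 1.002% (LLC-NR) and 1.092% (LLC-R) were among the densest in H3K9ac. Such overlap was not particular to the 2 active marks. Of the tiles densest in H3K4me3 in LLC-NR, 14.8% were dense in H3K27me3 (1.81% of all tiles) and 9.35% in H3K36me3 (1.08%). In LLC-R these shares were 8.99% for H3K27me3 (2.404% of all tiles) and 14.6% for H3K36me3 (1.83%).

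By the same limma fit over 172288 distal tiles, H3K4me3 was above H3K9ac in 946 (0.549%) and H3K9ac above H3K4me3 in 2036 (1.18%), with 10245 and 14921 at an unadjusted p under 0.05. Of the tiles with H3K9ac above, 69.3% lay inside a protein-coding gene, against 23.3% of those with H3K4me3 above and 33.2% of all tiles. They also held more G+C, with a median of 45.4% against 41.8% and 40.6%. The tiles with H3K9ac above differed from the others mainly in H3K4me3, with a median of 15 and 18 H3K4me3 peaks against 23 and 23 over all tiles, and 40 and 37 H3K9ac peaks against 36 and 33. The tiles with H3K4me3 above held 35 and 33 H3K4me3 peaks and 39 and 34 H3K9ac peaks. Chromosome 15 held more of the tiles with H3K4me3 above than any other chromosome (14.0%), and chromosome 7 more of those with H3K9ac above (14.1%). These calls were lost when the line was not a term and without the H3K9ac library of either line, where 0 tiles were called with limma in either direction, with 8528 and 11344 tiles at an unadjusted p in the fit without the line. Without an H3K4me3 library, in fits that also lacked the line term, there were 10053 tiles for H3K4me3 and 13797 for H3K9ac (LLC-NR left out) and 12100 and 19499 (LLC-R left out). With 5-kb tiles the order of the 2 counts turned, to 795 with H3K4me3 above and 557 with H3K9ac above.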

How the data were processed

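Libraries were prepared from nuclei of isografts digested with micrococcal nuclease. Per the submitters' processing notes and the study's methods, the authors aligned reads to mm9 with Bowtie 0.12.7, retained reads with a unique match and ran GeneTrack on every library separately; peak-calling settings and any input library are not given in the sources used here. The deposited files hold the chromosome, start and end of each nucleosome-sized peak, positions of another kind than counts or signal (no count, height or score), so the number of midpoints in a region was the measure, as a share of the library's own peaks, and reads behind a peak are unknown. Because a promoter holds at most 9 peaks, numbers saturate.

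The 21418 protein-coding genes of chromosomes 1 to 19 in GENCODE vM1 had 1 TSS each, the one most transcripts share, on NCBIM37 sequence. Promoters span 1 kb before to 0.5 kb after it. Marks were compared over the 2 lines with limma 3.58.1 in R 4.3.3 (trended empirical Bayes, pseudocount 0.5, Benjamini-Hochberg threshold 0.05, features with a peak in at least 2 of 4 libraries); nothing states that the libraries come from separate animals, so p-values measure only the spread between these libraries. Functions were tested on simulated data. With 200 simulated promoters changed, limma called 0 of 100 raised 1.5-fold and 0 of 100 lowered to 0.5-fold, at a residual SD of 0.274 against 0.319 in the data. With 6000 changed it called 847 of 3000 and 429 of 3000, with 55 false calls. In simulated distal tiles it called 81 and 85 of 100, with 13 false calls. A promoter that was not called may therefore still differ. Python 3.11.15, NumPy 2.4.6, pandas 2.3.3, SciPy 1.17.1 and Matplotlib 3.10.9 were used.

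The members, gene lists and tests were chosen with earlier results of these data known. Named were up to 8 genes of each discordant list (no Gm or Rik symbols), ordered by the smaller of the 2 lines' log2 differences; the genes of the ChIP-qPCR; writers, erasers and readers of the marks; and the 2 highest and 2 lowest genes of each list. Others were named after their values were seen. Alternatives varied the scale, regions, TSSs, CpG intervals, tiles, thresholds, pseudocount, filter, line term and libraries. Some genes that this rule names are not reported here.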

Additional observations from a re-analysis of the deposited data

Results flagged for a closer look

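Of 89 genes named in the lists, 21 had H3K4me3 above H3K9ac in one line and H3K9ac above H3K4me3 in the other, on the log2 scale of the shares. That is 23.6%, against 22.7% (4692) of the 20664 promoters tested. These opposite directions were not tested, and each rests on 1 library per mark and line. The log2 ratio was higher in LLC-NR by 1.99 at Hist1h2ag, 1.82 at Ccl27a, 1.5 at Tie1, 1.04 at Rpl19, 0.98 at Cdh5, 0.96 at Cxcl14, 0.89 at Pax8, 0.65 at Hdac1, 0.65 at Kdr, 0.65 at Krt18, 0.54 at Aldoa, 0.47 at Dcn, 0.41 at Psmb11, 0.36 at Brd3 and 0.12 at Csf1r. The LLC-NR minus LLC-R difference was negative at Krtap13 (-3.34), Vmn1r26 (-3.22), Hk1 (-1.79), Hoxd4 (-1.36), Lum (-0.44) and Notch4 (-0.17). Krtap13 and Vmn1r26 had 0 H3K4me3 peaks in LLC-NR, so their values depend on the pseudocount.

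Chromosome X lay outside the comparison of chromosomes 1 to 19. Within 1 kb of its TSSs the log2 ratio of H3K4me3 to H3K9ac was 0.38 (LLC-NR) and 0.28 (LLC-R), a mean of 0.33, above 0 in both lines.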

How the results depend on the processing

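The log2 ratios, differences and correlations below kept their sign under every alternative run, but the order of the 2 counts of distal tiles turned with 5-kb tiles, and the raw covered share within 1 kb of TSSs gave the other order of the marks. The marks are paired by line, and the limma fit with the line as a term is that paired analysis; without the term, 7930 promoters had H3K4me3 above. The log2 ratio at TSSs (0.37) was 0.46 with 0.5 kb and 0.30 with 2 kb on each side, 0.32 with TSSs of all transcripts and 0.47 with the covered share c turned into -ln(1 - c), and by line 0.34 to 0.41. The HCP minus LCP ratio (0.61) was 0.43 with 2.5 kb on each side and 0.81 with -ln(1 - c), and by line 0.59 to 0.63. The gene body difference ran from -0.08 to -0.05 by line. The distal tile correlation (mean 0.664) was 0.573 with 5-kb and 0.758 with 50-kb tiles, 0.679 without the G+C trend and 0.162 with H3K27me3 and H3K36me3 held fixed, and by line 0.654 to 0.673. The ratio of shared positions (mean 2.64) was 3.46 within 10 bp and 1.76 within 50 bp, and by line 2.42 to 2.87.

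The list of promoters with high H3K4me3 and low H3K9ac (5) had 30 members with looser factors, 0 with 2.5 kb on each side, 27 in libraries thinned to the smallest, and 50 to 115 by line. The opposite list (12) had 46, 0, 105 and 96 to 321. The thinned lists kept 5 of the 5 and 7 of the 12. With limma, promoters with H3K4me3 above (6721) were 0 to 5314 with a library left out, in fits that with 3 libraries could hold no line term and so compare with 7930 rather than 6721, namely 0 without either H3K9ac library, 2305 without the LLC-NR and 5314 without the LLC-R H3K4me3 library. Promoters with H3K9ac above (69) were 136 without the line term, 345 with 2.5 kb on each side and 0 to 213 with a library left out. Distal tiles with H3K4me3 above (946) were 0 without the line term and 0 to 12100 with a library left out, and those with H3K9ac above (2036) were 0 and 0 to 19499; with 5-kb tiles the counts were 795 and 557. Why calls vanish without an H3K9ac library was not tested beyond the change in what sets the spread. The fits with a library left out, the values by line, the -ln(1 - c) levels and the correlation with other marks held fixed were chosen after seeing the data. Depth behind a peak is unknown, and peak numbers saturate at 9 per promoter.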

Other observations

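In HCPs both active marks followed H3K36me3 of the gene body. From the fifth of HCP genes with the fewest H3K36me3 peaks per body to the fifth with the most, relative density in the promoter went from 1.53 to 1.92 for H3K4me3 and from 0.951 to 1.24 for H3K9ac for LLC-NR genes, and from 1.49 to 1.75 and from 0.989 to 1.19 in LLC-R. By H3K27me3 in the promoter, HCPs with 0 to 2 H3K27me3 peaks were lowest in both lines. They stood at 1.65 for H3K4me3 and 1.06 for H3K9ac (LLC-NR, 1134 promoters) and at 0.891 and 0.595 (LLC-R, 264 promoters). From 3 peaks up there was no order shared by the lines. With 3 peaks the values were 1.86 and 1.2 (LLC-NR) and 1.63 and 1.11 (LLC-R). With 7 or more they were 1.74 and 1.11 (LLC-NR) and 1.68 and 1.12 (LLC-R). These are descriptions across promoters, which are not replicates.

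Whole chromosomes differed in their shares of the marks. The log2 ratio of the H3K4me3 share to the H3K9ac share was 0.11 (LLC-NR) and 0.07 (LLC-R) for chromosome 3, -0.14 and -0.06 for chromosome 7, -0.13 and -0.08 for chromosome 14, and -0.12 and -0.02 for chromosome 18. No test was made of these values.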
